A study of Homo sapiens with 14 samples.

Results

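The genes examined here encode the alpha chains of collagen. Members were the protein-coding genes of the GRCh38.p14 gene table whose symbol is COL, a number, A and a second number with nothing after it, and 44 of 20037 protein-coding genes met this rule. The rule uses symbols and no measured value. Chromatin immunoprecipitation and sequencing (ChIP-seq) had been done in HS-SY-II, an established synovial sarcoma cell line that the labels call WT, without saying how the tag was brought in. An antibody to GLTSCR1 gave 5 libraries, 1 from cells given the vehicle DMSO and 1 each from cells given WA-68 at 100 nM for 12, 24, 48 and 96 h. An anti-HA antibody, directed at an HA-tagged SS18::SSX fusion protein, gave 4 libraries, 1 each from DMSO and from 12, 24 and 48 h of WA-68. WA-68 is a PROTAC, a molecule that marks its target for destruction by the proteasome, and its target is BRD9.

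Each group held 1 library, so there was no replicate error, no test between conditions was made and every comparison describes these libraries only. The 5 input libraries were not analysed here. The labels give the DMSO cells no time and every later list was set against the same DMSO list of its antibody, so hours of culture and hours of WA-68 cannot be told apart. The lists held 13677 to 18037 GLTSCR1 regions and 24846 to 28619 fusion regions. The synovial sarcoma marker genes TLE1, BCL2 and TWIST1 each had a fusion peak at their ends in all 4 fusion lists, and peak lists hold no expression by which the cell type could be checked further. A fold is the authors' enrichment of a peak's strongest summit over local background. It ranks peaks within 1 list and does not show a rise or fall between lists. A gene without a peak fell below the caller's threshold there, and a missing call is no measure of absence. The read depth behind the lists is unknown. A gene-end fold belongs to a region that reaches the 1 kb window, and in 28 of 138 such entries over the members the strongest summit lay outside the window. Folds are listed in the order DMSO, 12, 24, 48 and, for GLTSCR1 alone, 96 h. Intervals are exact 95% Clopper-Pearson intervals and cover counting error only.

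Collagens are triple helices wound from alpha chains, and the genes for these chains set which fibres, networks and anchoring structures a tissue can build. Fibrillar collagens carry tension, network collagens form sheets such as the basement membrane, FACIT collagens coat fibrils, type VI forms beaded filaments and type VII anchors epithelium, while transmembrane types and multiplexins sit at cell surfaces and vessel walls. GLTSCR1 is the subunit that defines GBAF, a BAF chromatin remodelling complex that also holds BRD9, and SS18::SSX, the oncoprotein that defines synovial sarcoma, carries the BAF subunit SS18 as its first part.

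RefSeq promoter entries were found for 32 of the 44 members. The other 12 were COL1A1, COL1A2, COL2A1, COL3A1, COL5A2, COL6A1, COL6A5, COL8A1, COL9A3, COL14A1, COL20A1 and COL22A1, whose ends are called lower and upper by coordinate. Stretches of 250 bases directly before the start of 5 of them are printed, with every CG dinucleotide in capitals, because the peaks described below sit on or beside them. COL4A5 (chrX:108439588-108439837, plus strand) and COL4A6 (chrX:108439459-108439708, minus strand) are basement membrane chains transcribed away from each other, and their window carried the highest GLTSCR1 DMSO fold among member promoters. COL26A1 (chr7:101362625-101362874, plus strand) had the highest fusion DMSO fold over such a window. COL9A1 (chr6:70283198-70283447, minus strand) had the longest DMSO region over its start. COL7A1 (chr3:48595330-48595579, minus strand) was chosen after its values were seen, for a start that kept the fusion and not GLTSCR1. All are from RefSeq on GRCh38.p14 and run 5′ to 3′ on the gene's strand.
COL4A5: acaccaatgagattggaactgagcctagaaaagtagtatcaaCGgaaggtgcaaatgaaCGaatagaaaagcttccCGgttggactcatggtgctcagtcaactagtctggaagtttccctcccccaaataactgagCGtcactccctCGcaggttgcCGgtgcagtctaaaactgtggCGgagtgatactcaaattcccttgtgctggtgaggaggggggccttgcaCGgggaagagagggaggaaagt
COL4A6: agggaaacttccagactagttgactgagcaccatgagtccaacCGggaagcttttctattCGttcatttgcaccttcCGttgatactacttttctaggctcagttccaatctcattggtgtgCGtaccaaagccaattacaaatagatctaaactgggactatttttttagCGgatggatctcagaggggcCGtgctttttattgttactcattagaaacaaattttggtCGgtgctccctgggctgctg
COL26A1: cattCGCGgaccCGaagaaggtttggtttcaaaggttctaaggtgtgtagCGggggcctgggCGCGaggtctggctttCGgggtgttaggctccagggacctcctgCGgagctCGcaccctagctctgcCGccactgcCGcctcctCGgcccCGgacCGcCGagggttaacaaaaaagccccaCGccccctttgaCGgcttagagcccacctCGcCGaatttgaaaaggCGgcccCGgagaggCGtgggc
COL9A1: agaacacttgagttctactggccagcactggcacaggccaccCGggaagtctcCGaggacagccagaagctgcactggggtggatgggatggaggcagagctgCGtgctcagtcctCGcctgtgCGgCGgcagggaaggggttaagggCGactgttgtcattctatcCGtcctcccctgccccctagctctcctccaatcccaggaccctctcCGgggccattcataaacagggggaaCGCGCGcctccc
COL7A1: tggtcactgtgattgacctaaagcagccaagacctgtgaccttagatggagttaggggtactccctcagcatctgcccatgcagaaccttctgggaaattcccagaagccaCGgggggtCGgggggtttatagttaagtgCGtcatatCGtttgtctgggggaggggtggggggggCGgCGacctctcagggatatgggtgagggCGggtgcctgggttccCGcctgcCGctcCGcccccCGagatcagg
The starts of COL4A5 and COL4A6 lie 380 bp apart, so 121 bases of their 2 sequences are the same DNA read on opposite strands. These stretches hold 8 and 7 CG dinucleotides, against 22 for COL26A1, 12 for COL9A1 and 11 for COL7A1.

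Gene ends were taken as the 1 kb on either side of both limits of the gene's span. There, more collagen genes had the fusion than GLTSCR1 in every list pair, with overlapping intervals in each pair. In DMSO cells, 10 of 44 had a GLTSCR1 peak (22.7%, interval 11.5 to 37.8), against 31.1% of all protein-coding genes. A fusion peak was present at 14 (31.8%, 18.6 to 47.6), against 19.3% of all genes. Both backgrounds lay inside the intervals of the members.

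Under WA-68, GLTSCR1 was at the ends of 7 members at 12 h (background 26.6%) and of 6 at 24 h (background 14.7%). It was at 7 after 48 h (background 11.1%) and at 4 after 96 h (background 15.2%). Members were at 15.9, 13.6, 15.9 and 9.09%, and each background lay inside the interval of the members. The fusion was at the ends of 17 members at 12 h (background 18.6%), 15 at 24 h (16.6%) and 16 at 48 h (18.6%). These were 38.6, 34.1 and 36.4% of the members, and the lower interval limits of 24.4, 20.5 and 22.4% lay above the background at each time.

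**Figure D1:**
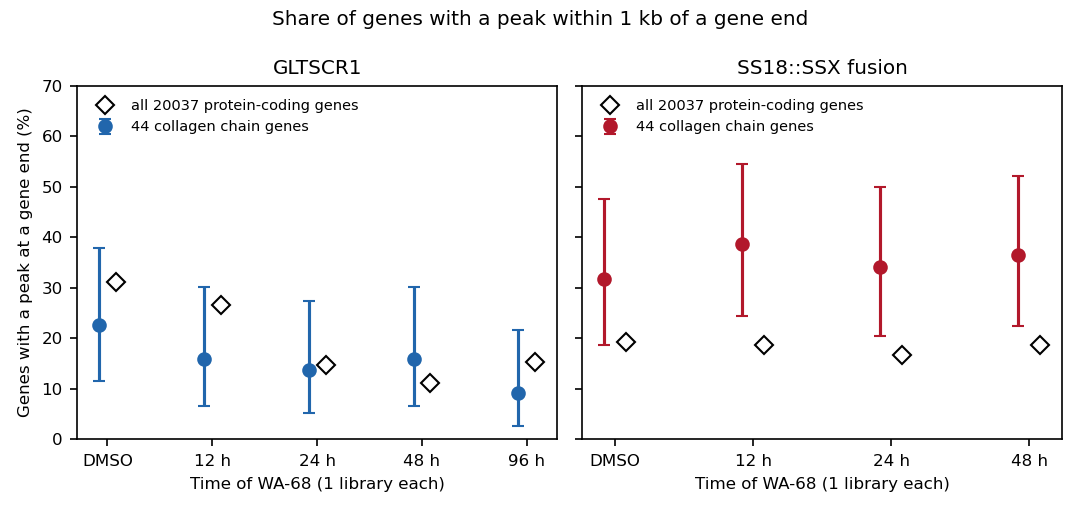
Share of genes (%) with a peak within 1 kb of a gene end, for GLTSCR1 and for the fusion, by list. Filled circles are the 44 collagen chain genes with exact 95% intervals for counting error, and open diamonds are all 20037 protein-coding genes; the fusion shares of the collagen genes run from 31.8 to 38.6% above a background of 16.6 to 19.3%, whereas the GLTSCR1 shares run from 9.09 to 22.7%.

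More members had the fusion at their ends in all 4 of its lists than had GLTSCR1 in all 5 of its lists. The GLTSCR1 rule was stricter, because it also takes in 96 h. At the ends of all genes GLTSCR1 had more regions than the fusion in DMSO and at 12 h (6371 against 4632 and 5261 against 4590). It had fewer there at 24 and 48 h (2966 against 4157 and 2331 against 4519). COL4A5 and COL4A6, which share their gene-end calls, had GLTSCR1 in each list up to 48 h and not at 96 h. A fusion peak was at the ends of 11 members in all 4 fusion lists (25.0%, interval 13.2 to 40.3), against 8.92% of all genes, which lay below that interval. The 11 were COL5A1 and COL5A3, COL9A3, COL14A1, COL19A1 and COL20A1, COL6A1, COL6A2, COL7A1 and COL26A1, and COL18A1. With a window of 500 bp, or with only peaks of −log10 q of at least 5, they were 8 of 44. The share of all genes was not counted under those settings, so the distance from background is known for the main setting only. GLTSCR1 was at the ends of 2 members in all 5 of its lists, COL1A1 and COL6A1 (4.55%, 0.555 to 15.5), near the background of 6.29%. COL6A1 alone was called at its ends in all 9 lists (background 2.38%). No list called a peak at the ends of 21 members (47.7%; background 51.8%).

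Within the 1 kb window, some ends were called for 1 protein and not for the other. Their regions could still overlap, as at COL5A3 in DMSO, where the GLTSCR1 region beyond the window lay inside the fusion end region. Both proteins were at 7 members in DMSO (15.9%, background 12.9%), namely COL1A1, COL5A1, COL8A1, COL9A3, COL6A1, COL7A1 and COL18A1. The fusion without GLTSCR1 was at 7 (15.9%, background 6.39%), namely COL5A3, COL14A1, COL19A1, COL20A1, COL6A2, COL26A1 and COL13A1. GLTSCR1 without the fusion was at 3 (6.82%, background 18.2%), namely COL11A2, COL4A5 and COL4A6. At 12 h, 24 h and 48 h both were at 6, 3 and 5 members (13.6, 6.82 and 11.4%, with backgrounds of 9.56, 5.83 and 6.77%). The fusion without GLTSCR1 was then at 11, 12 and 11 (25.0, 27.3 and 25.0%, with backgrounds of 9.01, 10.8 and 11.9%). GLTSCR1 was in DMSO and no later list at 4 members (background 6.79%), and the fusion at 1 (3.73%). COL14A1 was the only member with GLTSCR1 in every later list and not in DMSO (background 0.225%), and COL9A1 the only such member for the fusion (0.908%).

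**Figure D2:**
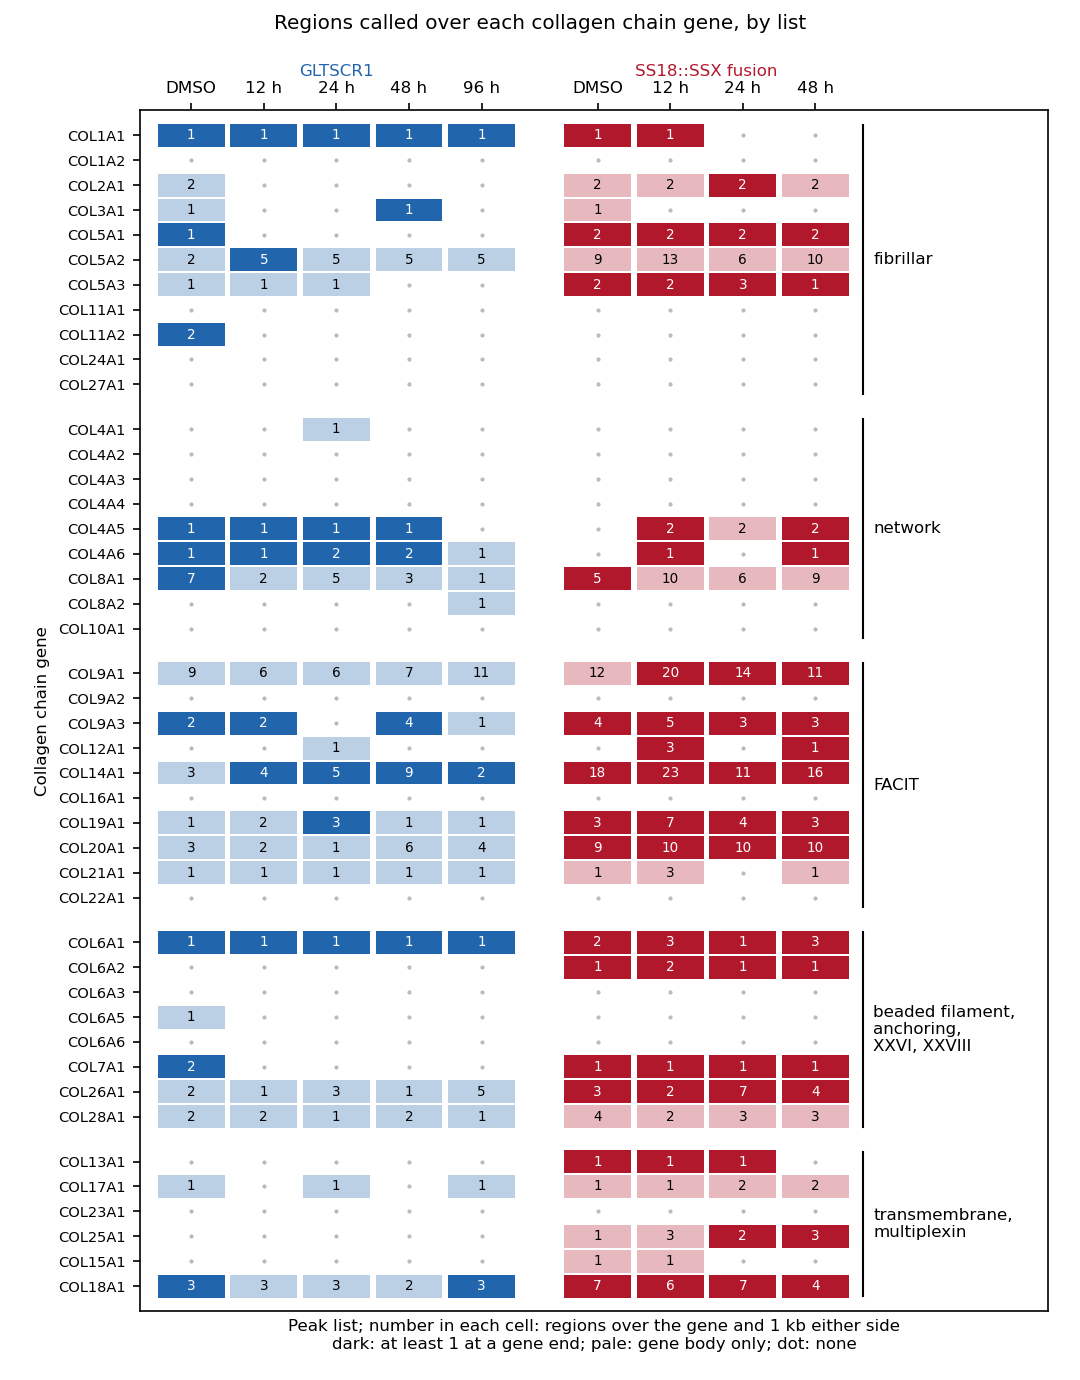
Number of called regions over each of the 44 collagen chain genes and 1 kb either side (rows, grouped by collagen class) in each of the 9 peak lists (columns). Dark cells have at least 1 region at a gene end, pale cells have regions in the gene body only, and dots mark no call; COL6A1 is the only row that is dark in all 9 columns, and 14 rows are empty throughout.

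Among the 11 fibrillar chain genes, GLTSCR1 was at the ends of 3 in DMSO and of 1 to 2 later, and the fusion at 3 in DMSO and 2 to 3 later. All genes had GLTSCR1 in 31.1% in DMSO and 11.1 to 26.6% later, and the fusion in 19.3% and 16.6 to 18.6%. COL1A1, which encodes the main chain of type I collagen, carried a high GLTSCR1 peak in every list. Its peak at the upper end of the gene (chr17:50200520-50201070 in DMSO) had folds of 10.3, 11.4, 10.5, 12.5 and 15.0 in the 5 lists. Each ranked high in its own list, between the 94.6th and 98.5th percentile of folds. The fusion was called at the same place with 7.29 in DMSO and 4.97 at 12 h and was not called at 24 or 48 h. The summits of both proteins lay 12 bp apart in DMSO and 70 bp apart at 12 h. COL1A2, which encodes the partner chain of type I collagen, had no region of either protein in any list.

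Of the genes for type V collagen, which seeds and limits fibril width, COL5A1 and COL5A3 had the fusion at their starts in every list and GLTSCR1 at most in DMSO. COL5A1 had a GLTSCR1 peak at its start in DMSO alone (chr9:134640876-134641558, fold 4.18). Its fusion folds at the start were 5.81, 4.08, 3.92 and 5.12, so the fusion was called at every time. The later fusion regions lay downstream of that DMSO region without overlap, and the 12 h region reached a weaker DMSO region beyond (3.53). COL5A3 had fusion regions that reached the 1 kb window at its start, with folds of 5.53, 6.47, 9.95 and 6.12. The 12 h summit lay outside that window, 1.43 kb inside the gene. GLTSCR1 lay inside that gene just beyond the window in the DMSO, 12 h and 24 h lists (5.62, 5.09 and 5.58) and was not called at 48 or 96 h.

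COL5A2, singled out after its values were seen, carried both proteins inside its long span. A site of 8301 bp, joined from neighbouring regions and centred 67.1 kb from the lower end of the gene, was called in all 9 lists. Its strongest GLTSCR1 folds were 7.65, 4.93, 5.20, 5.86 and 4.76, and its strongest fusion folds 6.55, 10.1, 7.45 and 7.96. The only call at a limit of the COL5A2 span was a GLTSCR1 peak at 12 h (5.64) in a window shared with WDR75. COL5A2 had no RefSeq start entry, so a call at its start cannot be told from a body call. A body site centred 147.0 kb from the lower end had GLTSCR1 (5.28) and the fusion (4.24) at 12 h alone. COL11A2, a cartilage chain gene, had GLTSCR1 in DMSO alone, at its start (4.10, in a region that also covers an end of RXRB) and at its other end (3.81), and the fusion nowhere. COL2A1, which encodes the main cartilage collagen, had GLTSCR1 in its body in DMSO alone, whereas the fusion was called in its body in all 4 lists (4.76, 3.43, 4.52 and 8.19) and reached a gene end at 24 h (3.03). COL3A1, the type III chain gene, had both proteins in its body in DMSO alone (5.84 and 3.27) and a gene-end call of GLTSCR1 at 48 h alone (4.23). COL11A1, COL24A1 and COL27A1 had no region in any list.

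Of the 9 network chain genes, 3 had a gene-end peak in at least 1 list and 6 had none, against 51.8% of all genes with none. Type IV collagen, the scaffold of basement membranes, is encoded by 3 pairs of genes that start back to back, and only 1 pair had peaks at its shared start. At COL4A5 and COL4A6, GLTSCR1 was called within 1 kb of both starts with folds of 6.23, 4.79, 5.17 and 6.12 from DMSO to 48 h, and was not called at 96 h. The fusion was called there in the 12 h and 48 h lists (4.93 and 3.95) and in neither of the others. All 4 GLTSCR1 regions and both fusion regions overlapped the printed stretches, so these 2 members share every gene-end call and are not independent. Relative to the COL4A5 start, with negative values upstream, GLTSCR1 summits lay at -211, -172, 173 and -219 bp and the fusion summits at -136 and -180 bp. At 12 and 48 h the summits of both proteins were 36 and 39 bp apart.

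COL4A1 and COL4A2, whose starts lie 127 bp apart, and COL4A3 and COL4A4, 419 bp apart, had no peak at their ends in any list. COL4A1 had 1 region in its body, of GLTSCR1 at 24 h, and the other 3 had none. COL8A1, a chain of the hexagonal network of vessels and cornea, had both proteins within 1 kb of its lower end in DMSO and neither later. GLTSCR1 had a fold of 4.20 there and the fusion 4.88 and 3.62 in 2 regions, with no overlap between them. Inside the gene a site of 4065 bp, centred 8.69 kb from that end, was called in all 9 lists. Its strongest GLTSCR1 folds were 8.46, 4.13, 6.55, 6.20 and 4.53, and its strongest fusion folds 7.58, 9.32, 6.88 and 4.40. The joined site was thus called throughout, although 0 of the 7 single GLTSCR1 DMSO regions over the gene were called again at every later time. COL8A2 had 1 GLTSCR1 region in its body at 96 h, and COL10A1, the chain of growth plate cartilage, had none.

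The 10 FACIT genes held most of the sequence under fusion regions in DMSO. COL20A1, COL9A1 and COL14A1 were covered by 29.87, 27.66 and 19.87 kb of fusion regions in DMSO, which were 23.5, 21.7 and 15.6% of the 127 kb over all 44 members. These 3 genes held 42.9% of the 91 fusion regions over members in DMSO. FACIT genes with a fusion peak at their ends numbered 4, 6, 5 and 6 in the 4 lists, and those with GLTSCR1 numbered 1, 2, 2, 2 and 1 in the 5 lists. All genes had the fusion in 16.6 to 19.3% and GLTSCR1 in 11.1 to 31.1%. In DMSO the GLTSCR1 share was 10.0% of FACIT genes against 31.1% of all genes. Counts among 10 genes are small, and no interval was made for them.

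COL20A1, which encodes a FACIT chain, lay under the widest fusion region of any member. This body region was 21049, 22166, 20023 and 19923 bp wide in the 4 lists, with folds of 11.3, 10.4, 11.1 and 13.2. Fusion regions together covered 68.5% of the gene and its 1 kb flanks in DMSO and 73.5, 75.3 and 72.8% later. Fusion regions reached the gene ends at every time, the strongest with folds of 4.70, 7.10, 15.1 and 9.40. Only the DMSO summit of these lay within 1 kb of a span limit. The 24 h and 48 h regions reached the lower end from summits 4.08 and 4.24 kb inside the gene, where a DMSO region of fold 9.71 stopped short of the end and counted as body. The 12 h summit lay 3.06 kb beyond the upper limit. The 24 h region also reached an end of ARFGAP1. GLTSCR1 was called at neither end in any list. Within the wide fusion region it formed narrow peaks in all 5 lists, the strongest with folds of 4.73, 8.32, 4.26, 15.3 and 11.8. The strongest summits from 12 h on fell at chr20:63309708, chr20:63309801, chr20:63309730 and chr20:63309760, a place without a GLTSCR1 call in DMSO.

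COL9A1, a chain of cartilage type IX collagen, had both proteins around its RefSeq start, which lies inside the gene's span. A fusion region of 4671 bp covered the start in DMSO (chr6:70279264-70283934) with a fold of 6.40. Regions of 3789, 3417 and 4280 bp covered it later, with folds of 4.90, 6.01 and 8.12. GLTSCR1 was within 1 kb of the start in the DMSO, 48 h and 96 h lists (4.46, 4.02 and 3.19). A site of 6354 bp centred 11.5 kb downstream of the start was called in all 9 lists. Its strongest GLTSCR1 folds were 3.49, 6.60, 4.17, 5.54 and 3.40, of which the DMSO and 96 h values ranked at the 10.9th and 7.3rd percentile. Its strongest fusion folds were 9.49, 16.9, 9.40 and 12.8, so the fusion was high there in every list. At 12 h the fusion fold ranked at the 99.5th percentile of its list.

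Another COL9A1 site, 6.20 kb from the lower end of the gene, belonged mostly to GLTSCR1. Its folds were 5.41, 5.98, 6.95, 7.80 and 10.2, while the fusion was called there in DMSO alone (3.90). The lower end itself, which faces the far end of COL19A1, had the fusion in every later list (9.12, 4.23 and 8.89) and not in DMSO. At 12 and 48 h these folds came from 1 region shared by both genes, with its summit 2.11 and 2.72 kb from the COL9A1 limit on the COL19A1 side. A weaker fusion region of COL9A1 alone was also called at this end at 12 and 48 h (2.94 and 3.84). Its summits lay 0.71 and 0.669 kb from the limit. COL19A1, a basement membrane zone FACIT chain, had fusion folds at its far end of 4.28, 9.12, 6.22 and 8.89. Those of 12 and 48 h belong to the region shared with COL9A1, so these folds are not independent between the genes. Weak fusion peaks stood at the start of COL19A1 in the first 3 lists (2.47, 2.49 and 2.68). Its only GLTSCR1 call at an end was at 24 h (3.93), with a summit 15 bp from that of the fusion. In its body a GLTSCR1 site 242.0 kb from the start was called in every list but that of 48 h (4.72, 5.81, 10.5 and 5.77), and the fusion was not called there in any.

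**Figure D3:**
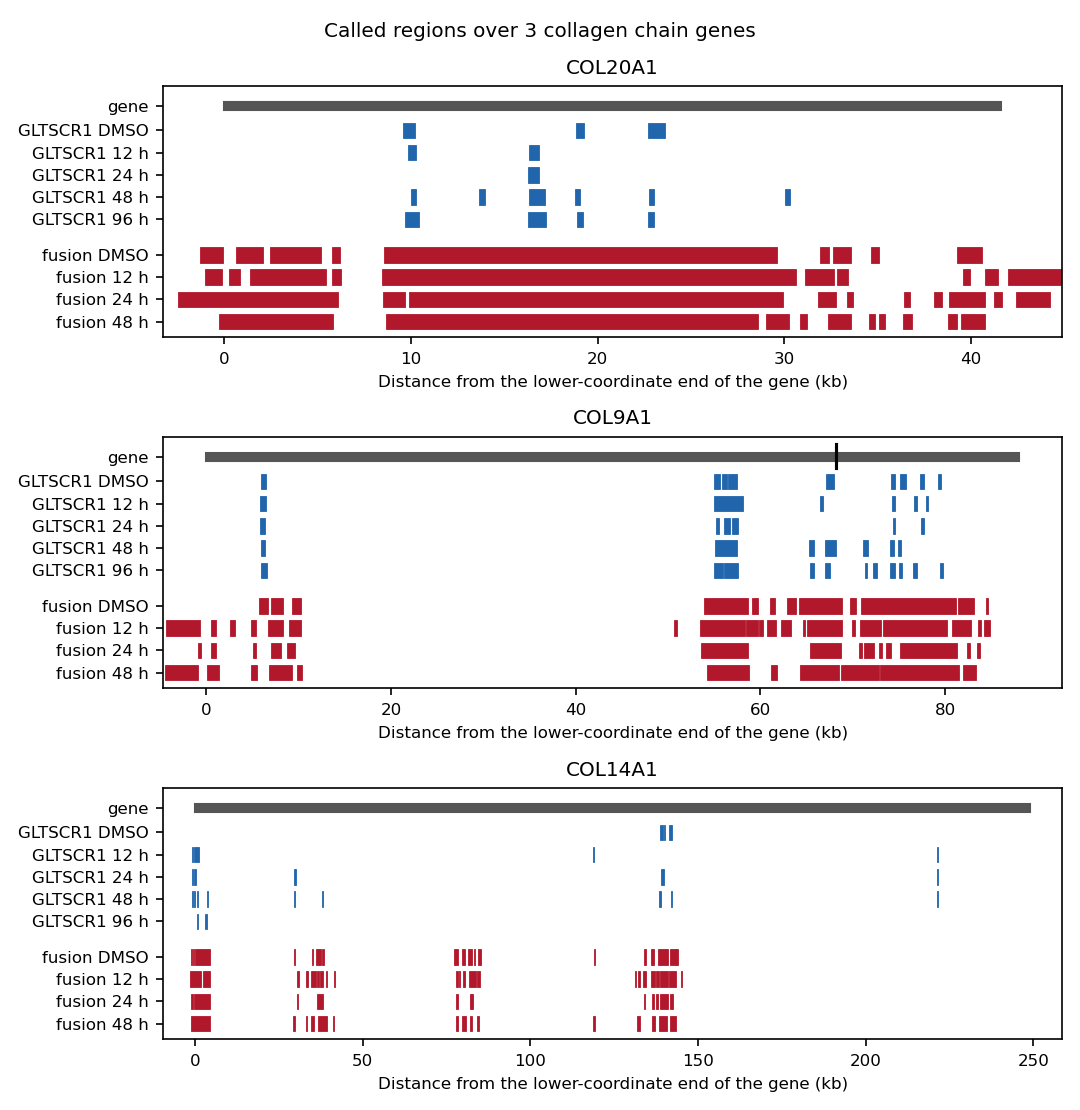
Called regions over COL20A1, COL9A1 and COL14A1 against distance from the lower-coordinate end of the gene (kb), 1 row per list, with the gene span in grey and, where RefSeq gave it, the start as a vertical tick. Bars are regions to scale; the COL20A1 fusion row shows a region of about the same extent in all 4 lists (19923 to 22166 bp), within which GLTSCR1 regions are narrow.

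COL14A1, a FACIT chain of dense connective tissue, was the member with GLTSCR1 at an end in each later list but not in DMSO. No GLTSCR1 region was at its lower end in DMSO, and the later folds there were 5.39, 4.33, 8.14 and 3.53. The last of these ranked low, at the 9.6th percentile of its list. Fusion regions reached this end at every time, with folds of 6.40, 6.65, 6.56 and 8.75, the DMSO summit lying 3.42 kb inside the gene and the 24 h summit 1.16 kb inside. Summits of the 2 proteins lay 396, 1110 and 1493 bp apart at 12, 24 and 48 h. The 3 GLTSCR1 regions of COL14A1 in DMSO all lay on or beside a site 139.0 kb from that end, where the fusion had folds of 11.1, 7.58, 6.72 and 6.29. A site 221.0 kb from the lower end had GLTSCR1 in the 12, 24 and 48 h lists (5.30, 8.01 and 6.32) and no fusion in any.

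COL9A3, another chain of type IX collagen, had both proteins at its lower end. GLTSCR1 folds were 9.09, 4.24 and 6.24 in the DMSO, 12 h and 48 h lists, with no call at 24 or 96 h. Fusion folds were 6.84, 4.30, 6.12 and 7.86, and 1 region at each of 24 and 48 h also reached an end of OGFR. COL9A2, the remaining chain gene of type IX, had no region in any list. COL21A1 had no gene-end peak, but a body site upstream of its RefSeq start (chr6:56292339-56293156) had GLTSCR1 folds of 12.0, 13.6, 6.45, 18.0 and 11.6. The 48 h value ranked at the 99.4th percentile, the highest rank of any GLTSCR1 region over a member. The fusion was called there more weakly within its lists, with 3.32, 4.70 and 4.87 in the DMSO, 12 h and 48 h lists, and not at 24 h. COL12A1, a fibril-coating chain of tendon and ligament, had the fusion at its start in the 12 and 48 h lists (4.39 and 4.48) and GLTSCR1 at 24 h inside the gene, 1475 bp from the start (5.67), and COL16A1 and COL22A1 had no region. COL21A1 and COL12A1 were singled out after their values were seen.

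Among the 8 genes of beaded filaments, anchoring fibrils and types XXVI and XXVIII, the fusion was at the ends of the same number, 4, in each of its lists. GLTSCR1 was at 2 in DMSO and at 1 in each later list. Shares over all genes were 16.6 to 19.3% for the fusion and 11.1 to 31.1% for GLTSCR1. COL6A1, a chain of the type VI microfibrils around cells, had GLTSCR1 at its lower end with folds of 10.4, 6.92, 5.55, 8.50 and 6.11. The strongest fusion folds at that end were 5.65, 3.18, 4.49 and 4.84. The strongest summits of the proteins lay 962, 967, 1480 and 1023 bp apart, and these strongest regions overlapped in DMSO alone. Weaker fusion regions overlapped the GLTSCR1 region at 12 and 48 h (2.88 and 3.49). GLTSCR1 summits fell at chr21:45980948 in DMSO and within chr21:45980962-45980996 later. COL6A2, the neighbouring type VI gene, had the fusion at its start at every time, with folds of 4.20, 3.82, 2.83 and 5.60, and no GLTSCR1 region in any list. The 12 h and 24 h regions at this start did not overlap that of DMSO. The 24 h fold ranked low, at the 1.5th percentile of its list.

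COL7A1, the anchoring fibril chain gene, lost the GLTSCR1 call and not that of the fusion. GLTSCR1 had 2 regions at its start in DMSO, with folds of 4.76 just before the start and 5.03 inside the gene, and none in any later list. The fusion was called before the start with folds of 4.70, 4.42, 4.23 and 3.62. Its summits lay at -192, -197, -311 and -269 bp from the start, so those of DMSO and 12 h fall on the printed stretch. All 4 fusion regions overlapped the place of the upstream GLTSCR1 region. The fusion ranked at the 52.3rd percentile of its list in DMSO and the 16.0th at 48 h, so these were ordinary or weak peaks.

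COL26A1, a chain first described in testis and ovary, had the fusion at its start at every time, with folds of 6.77, 4.72, 4.82 and 4.33. Summits lay at -68, 721, -61 and -98 bp from the start, on the printed stretch in every list but that of 12 h. GLTSCR1 regions began 968, 1098 and 1052 bp inside the gene in the DMSO, 24 h and 96 h lists (4.92, 5.16 and 5.75). At a site centred 180.0 kb from the start GLTSCR1 was the steadier call. GLTSCR1 was called there in all 5 lists with folds of 5.83, 7.40, 7.20, 10.5 and 7.48, while the fusion was called in the 24 and 48 h lists only (3.49 and 4.32). COL28A1 had regions of both proteins in its body in all 9 lists and none at its ends. A COL28A1 site 111.0 kb from the start had GLTSCR1 in every later list (3.41, 3.36, 4.80 and 7.66), no GLTSCR1 in DMSO and no fusion. COL6A5 had 1 GLTSCR1 region in DMSO, and COL6A3 and COL6A6 had none.

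Of the 6 transmembrane chains and multiplexins, COL18A1 alone had both proteins at its ends. It encodes the basement membrane collagen from which endostatin is cut. The fusion was at its start at every time with folds of 6.52, 5.46, 5.75 and 8.28. GLTSCR1 was within the window in the DMSO and 96 h lists (4.21 and 3.78), and beyond it inside the gene at 12 and 48 h (3.39 and 5.55). Summits of the 2 proteins lay 14 bp apart in DMSO. COL13A1, a transmembrane chain of the neuromuscular junction, had the fusion at its start in the first 3 lists (3.70, 5.45 and 6.52), and GLTSCR1 in none. COL25A1, a neuronal transmembrane chain, had a fusion peak at its start in the 24 and 48 h lists (8.50 and 5.65) and a body peak at every time (9.12, 4.90, 6.02 and 4.59), without GLTSCR1. COL17A1, the hemidesmosome chain, and COL15A1 had body regions only, and COL23A1 had none.

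Over whole spans the picture depended on gene length. Collagen genes are long, with a median span of 145.0 kb against 24.1 kb for all protein-coding genes, and 26 of the 44 spanned at least 100 kb. A GLTSCR1 region lay anywhere over 23 members in DMSO (52.3%; background 37.3%), and a fusion region over 23 (52.3%; background 24.2%). Among the 26 long members both shares were 46.2%, against 51.5% for GLTSCR1 and 37.4% for the fusion among the 3356 protein-coding genes of at least 100 kb. With an interval of 26.6 to 66.6%, neither could be told from the long-gene background. In all 9 lists 10 members had a region somewhere (22.7%; background 6.48%), and 7 of the 26 long ones did (26.9%; long-gene background 18.1%). They were COL5A2, COL8A1, COL9A1, COL14A1, COL18A1, COL19A1, COL20A1, COL6A1, COL26A1 and COL28A1. No list called any region over 14 members (31.8%; background 44.4%), of which 9 were among the 26 long ones (34.6%; long-gene background 30.5%).

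Joined across lists, the regions over members formed 148 separate sites, of which 33 touched a gene end and 115 lay in gene bodies. All 9 lists called 6 of them, namely the lower end of COL6A1 and body sites of COL5A2, COL8A1, COL20A1 and, at 2 places, COL9A1. All 4 fusion lists called 33 sites and all 5 GLTSCR1 lists called 10. No site was in all 5 GLTSCR1 lists without the fusion in at least 1.

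DMSO regions over the collagen genes were called again about as often as those over all genes, except for GLTSCR1 at 12 h, with wide intervals. Of 49 GLTSCR1 DMSO regions, 38.8% (25.2 to 53.8) overlapped a GLTSCR1 region at 12 h, against 57.1% of the 12268 over all protein-coding genes. The shares at 24, 48 and 96 h were 53.1, 44.9 and 44.9%, against 44.3, 38.2 and 45.0%. Those called at every later time numbered 10 (20.4%, 10.2 to 34.3; all genes 23.9%), and 13 were called at none (26.5%, 14.9 to 41.1; all genes 27.4%). Of these GLTSCR1 shares only that of 12 h had an interval that left out the value for all genes. By place it did not: the 12 h share was 39.5% in member bodies (24.0 to 56.6; all gene bodies 52.1%) and 36.4% at member ends (10.9 to 69.2; all gene ends 61.8%).

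For the fusion, 78.0% of 91 DMSO regions were called at 12 h (68.1 to 86.0; all genes 70.6%), 61.5% at 24 h (50.8 to 71.6; all genes 63.5%) and 75.8% at 48 h (65.7 to 84.2; all genes 67.5%). Those called at every later time numbered 47 (51.6%, 40.9 to 62.3; all genes 49.1%) and those called at none 10 (11.0%, 5.40 to 19.3; all genes 15.2%). Each of these values for all genes lay inside the interval of the members. COL14A1 contributed 10 of the 47, COL20A1 8, COL9A1 6 and COL5A2 and COL18A1 5 each. When only strongest summits within 250 bp counted, the fusion share at every later time was 5.49% (1.81 to 12.4), against 8.20% of regions over all genes by the same rule. For GLTSCR1 that rule gave 14.3% (5.94 to 27.2), against 9.88% over all genes. By overlap the order of the 2 proteins was the other way, with 20.4% for GLTSCR1 and 51.6% for the fusion.

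**Figure D4:**
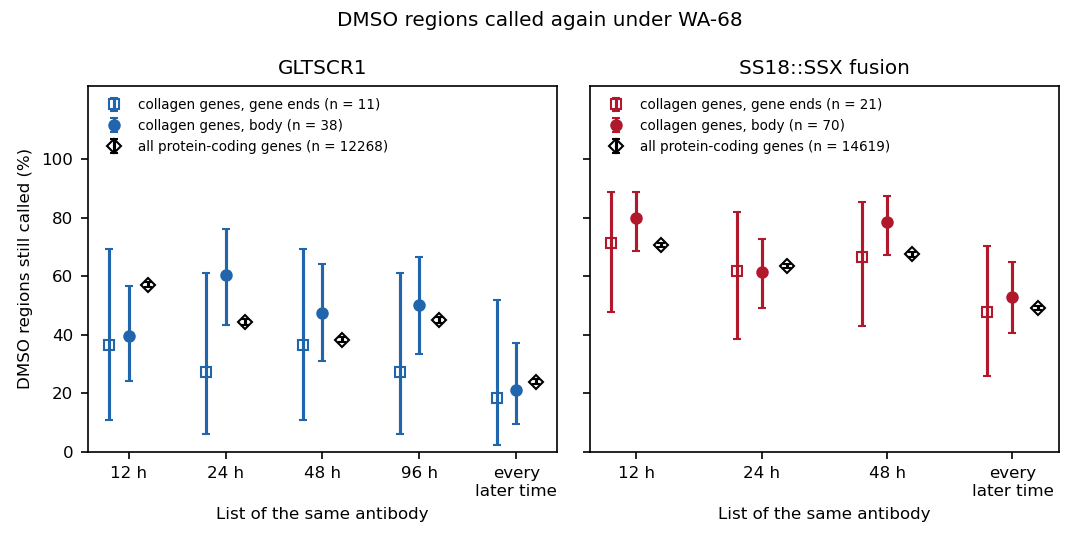
Share (%) of DMSO regions that a later list of the same antibody called again, by overlap of at least 1 bp, with exact 95% intervals for counting error. Open squares are regions at collagen gene ends (11 for GLTSCR1, 21 for the fusion), filled circles regions in collagen gene bodies (38 and 70) and diamonds regions over all protein-coding genes; the GLTSCR1 shares at collagen gene ends and bodies were 36.4 and 39.5% at 12 h and 27.3 and 60.5% at 24 h, with overlapping intervals, and those at all gene ends and bodies at 24 h were 37.7 and 51.4%.

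A fusion region of the same time overlapped 71.4% of the 49 GLTSCR1 regions over members in DMSO (56.7 to 83.4), against 54.2% over all genes. Gene-end regions made up 22.4% of the member regions and 51.9% of those over all genes. By place the shares were 76.3% in member bodies (59.8 to 88.6; all gene bodies 69.8%) and 54.5% at member ends (23.4 to 83.3; all gene ends 39.7%), with both values for all genes inside the intervals. Over ends and bodies together the shares were 67.6% at 12 h (all genes 50.1%), 51.2% at 24 h (51.5%) and 80.4% at 48 h (66.1 to 90.6; 67.2%). There were fewer GLTSCR1 than fusion regions, 49 against 91 over members in DMSO. Of the fusion regions over members, 27.5% overlapped GLTSCR1 in DMSO (18.6 to 37.8; all genes 39.9%), 16.9% at 12 h (26.5%), 18.2% at 24 h (26.8%) and 30.8% at 48 h (26.2%). Counted as regions and not as genes, these shares weigh COL9A1, COL14A1 and COL20A1 most. Per 100 kb of member span there were 0.704, 0.489, 0.589, 0.661 and 0.575 GLTSCR1 regions, against 0.947, 0.824, 0.700, 0.603 and 0.716 over all genes. The fusion had 1.31, 1.78, 1.26 and 1.31, against 1.13, 1.27, 1.11 and 1.18. GLTSCR1 was thus below all genes except at 48 h, and the fusion above them in each list, as plain densities without an interval. The 3 members with the most fusion regions held 42.9, 45.2, 39.8 and 40.7% of the fusion regions over members, so the fusion densities lean on few genes. Densities were not set against genes of like length.

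At starts as RefSeq gives them, 8 of 32 members had GLTSCR1 within 1 kb in DMSO (background 31.0%) and 9 had the fusion (background 17.4%). The fusion was there at every time in 7 (21.9%, 9.28 to 40.0; background 7.08%), namely COL5A1, COL5A3, COL6A2, COL7A1, COL9A1, COL18A1 and COL26A1, and GLTSCR1 in 0 (0 to 10.9%; background 5.54%). At the far end only COL19A1 had the fusion at every time (background 2.47%). CG content did not separate called from uncalled collagen starts. The 300-base windows, from 250 bases before to 50 after the start, held a median of 22 CG dinucleotides both in the 9 with a DMSO fusion peak and in the 23 without. Over all promoters the medians were 28 and 20. For GLTSCR1 the medians were 16.5 in 8 called and 23 in 24 uncalled members, and 27 and 18 over all promoters. The member counts ran from 7 to 46 in called and from 1 to 45 in uncalled starts. The lowest called starts were COL4A6 and COL4A5, which share 1 GLTSCR1 region, so the order of the member medians leans on that site and was not tested. The start richest in CG, that of COL18A1 with 46, had the fusion in all 4 lists and GLTSCR1 in DMSO. COL25A1 with 38 and COL5A1 and COL6A2 with 36 each had the fusion in at least 2 lists. COL4A1, COL4A2, COL8A2 and COL15A1 had 45 each and no peak there in any list, and the first 2 of these share most of their window. COL4A5 and COL4A6 had 8 and 7 with GLTSCR1 in 4 lists.

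**Figure D5:**
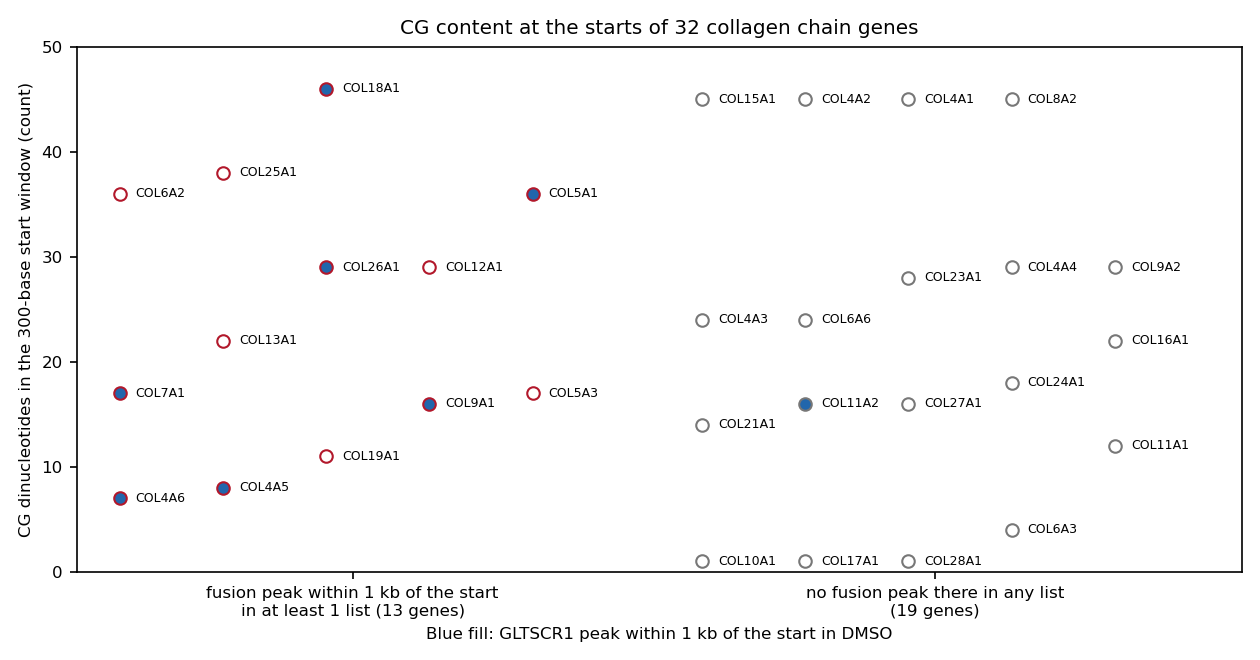
Number of CG dinucleotides in the 300-base window at the start of each of 32 collagen chain genes (vertical axis), split by whether the fusion was within 1 kb of the start in any list; points are spread sideways only for legibility. Red outlines mark genes with the fusion (13), grey outlines genes without (19), and blue fill a GLTSCR1 peak within 1 kb in DMSO; the highest point, COL18A1 at 46, lies in the group with the fusion, as do COL4A6 and COL4A5 at 7 and 8, and the 4 genes at 45 lie in the other group.

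Short motifs were searched on both strands of the same windows. The GC box letters GGGCGG were in 18 of 32 members (56.2%; all promoters 58.5%), the letters CCAAT in 10 (31.2%; 36.4%) and TATAAA in 5 (15.6%; 9.63%). The AP-1 letters TGANTCA were in 0 of 32, against 5.75% of all promoters. COL18A1 held 9 GC boxes and COL8A2 8, with the fusion at the start of the former only. COL4A5 and COL4A6 had no GC box and held 2 and 3 CCAAT matches. A match only describes the letters of these windows.

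Genes that act on collagen were described in the same way, from lists of 60 genes in 5 groups. Of 17 genes for collagen modification, folding and export, GLTSCR1 was at the ends of 7, 7, 2, 1 and 6 in the 5 lists, and the fusion at 2, 3, 2 and 2 in the 4 lists. P3H3, a collagen prolyl hydroxylase gene, had a GLTSCR1 DMSO fold of 11.6, and SERPINH1, which encodes the collagen chaperone HSP47, had 8.67 and no fusion call. None of the 17 kept either protein in all lists of its antibody. Over all protein-coding genes the shares were 31.1, 26.6, 14.7, 11.1 and 15.2% for GLTSCR1 and 19.3, 18.6, 16.6 and 18.6% for the fusion. In DMSO this group was called more by GLTSCR1 (41.2%) than by the fusion (11.8%), the same direction as all genes.

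Of 13 genes for procollagen processing and cross-linking, GLTSCR1 was at 5, 4, 4, 3 and 3 and the fusion at 5, 5, 3 and 4. Backgrounds for this group and the next were those above, in DMSO 31.1% for GLTSCR1 and 19.3% for the fusion. BMP1, the procollagen C-proteinase gene, had GLTSCR1 at every time with folds of 5.87, 17.1, 4.66, 8.10 and 11.6, and the fusion in DMSO and at 12 h. Of 9 collagen receptor genes, GLTSCR1 was at 3, 2, 2, 2 and 3 and the fusion at 1, 0, 1 and 1. ITGB1, the common beta chain of the collagen integrins, had a GLTSCR1 DMSO fold of 12.9, and the receptor kinase gene DDR2 had 11.3, and both were called by GLTSCR1 at every time.

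Of 9 collagen breakdown genes, GLTSCR1 was at 3, 2, 3, 2 and 2 and the fusion at 2, 2, 1 and 2. MRC2, which encodes an uptake receptor for collagen fragments, was called in all 9 lists, and the gelatinase gene MMP2 in all 5 GLTSCR1 lists. MMP14, a membrane collagenase gene, had GLTSCR1 in DMSO (8.99) and at 24 h (5.58) only. Of 12 laminin chain genes, which encode the other main scaffold of basement membranes, GLTSCR1 was at 6, 4, 3, 3 and 3 and the fusion at 4, 6, 6 and 6. The all-gene shares above, 31.1% for GLTSCR1 and 19.3% for the fusion in DMSO, are the background of these counts too. LAMB1 and LAMC1 were called in all 9 lists, with GLTSCR1 DMSO folds of 10.5 and 8.69, in contrast to the type IV collagen genes COL4A1 and COL4A2, which had no gene-end peak in any.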

How the data were processed

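ChIP-seq peak lists of GLTSCR1 (5 libraries) and of the HA-tagged fusion (4 libraries) were used, 1 library per group. The submitters' processing notes list BWA, SAMtools and Picard, the peak caller MACS2, deepTools, and for reads bcl2fastq, FastQC, cutadapt and Trim Galore, with the build GRCh38. Versions, settings and any use of an input as control were not given in the sources used here. The deposited lists hold regions called per library by the authors, each with a summit's fold enrichment (a ratio over local background). The same deposited lists give each summit's −log10 p and −log10 q, with a lowest −log10 q of 3.00. Other columns of the deposited lists, such as the summit offset, were used as coordinates only.

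Entries with the same coordinates were joined to 1 region with its strongest summit, on chromosomes 1 to 22, X and Y. Regions were laid over the RefSeq gene table (GRCh38.p14) by an overlap of at least 1 bp, with gene ends as windows of 1 kb on either side of both span limits and the rest of the span as body. Promoter windows ran from 250 bases before to 50 after the RefSeq start. Work was done in Python 3.11.15 with pandas 2.3.3, numpy 2.4.6, scipy 1.17.1 and matplotlib 3.10.9, and the overlap code was tested on simulated regions. Backgrounds are the same counts over all protein-coding genes.

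The members, the gene lists and the rules were chosen with earlier results of these data known. Values in every list were given for members with gene-end peaks in all lists of an antibody, with both proteins in DMSO, in DMSO alone, in every later list but not DMSO, or among the 3 with the most kb under regions, and of other lists for up to 3 genes per antibody by DMSO fold. Members named beyond this rule, among them COL2A1, COL3A1, COL4A5, COL4A6, COL5A2, COL12A1, COL13A1, COL21A1, COL25A1 and COL28A1, were chosen after their values were seen. Windows, a stricter q, joining of near regions, summit distance and overlap share were the alternatives.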

Additional observations from a re-analysis of the deposited data

How the results depend on the processing

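No paired analysis was possible because each group held 1 library. Of 37 alternatives to the main counts and shares of collagen genes, 32 stayed within 1.5 times the main count or within its interval, and 5 did not. With a window of 500 bp the number of members with GLTSCR1 at their ends at every time was 0 in place of 2. At RefSeq starts alone, known for 32 members, it was also 0, the members with the fusion in DMSO were 9 in place of 14, and those with the fusion at every time were 7 in place of 11; fewer members and 1 end in place of both entered there. When strongest summits had to lie within 250 bp, the share of fusion DMSO regions called at every later time was 5.49% in place of 51.6%, and the cause was not tested. The GLTSCR1 share by that rule was 14.3% in place of 20.4% and stayed within its interval. Of 45 alternatives to the counts at single times, 10 moved by over 1.5 times, 9 of them for GLTSCR1. Chosen after seeing the data, leaving out COL9A1, COL14A1 and COL20A1 gave 14.7% of 34 GLTSCR1 regions and 44.2% of 52 fusion regions at every later time. Depth is unknown, so a weak peak and a missing call cannot be set on a common scale between lists.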
